A study of Mus musculus with 12 samples.

Results

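The comparison described here is the second dose step of a 4-group RNA-seq experiment, 10 μM against 1 μM of the peptide cpTLR-i in LPS-activated macrophages. The members are 6 of the 12 libraries, chosen by their treatment label alone: 3 from cells given LPS and 10 μM cpTLR-i, and 3 from cells given LPS and 1 μM cpTLR-i. All came from wild-type (WT) mouse bone marrow-derived macrophages (BMDMs), which were grown for 7 days in 20 ng/ml M-CSF, the growth factor that drives macrophage differentiation, then pretreated with the peptide and activated with LPS for 2 h. The other groups, LPS alone for 2 h and untreated control cells labelled 0 h, had 3 libraries each. Both are given as levels beside the dose step and enter its shared estimate of the spread. LPS alone also enters the comparison of the 2 dose steps with each other. The study's methods name C57BL/6J mice, whereas the age of the mice that gave the bone marrow is not stated in the sources used here, nor is it stated that replicate libraries came from different animals or cultures. The p-values therefore rest on the spread among replicate libraries alone, and that spread may be technical. No group labelled as peptide without LPS or as LPS with a control peptide was analysed here, so a change between the doses cannot be assigned to the LPS response or to the peptide by itself.

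cpTLR-i joins a short stretch of the TIR domain of TIRAP, the bridging adaptor of TLR4, to a cell-penetrating sequence. LPS is sensed by TLR4 with its cofactors CD14 and MD-2. The receptor signals at the cell surface through TIRAP and MyD88 to NF-κB and the MAP kinases, and from endosomes through TRAM and TRIF to IRF3 and interferon-β, which in turn drives interferon-stimulated genes through JAK kinases and STAT factors. The comparison asks which transcripts moved when the peptide was raised between the doses.

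The deposited values are FPKM, fragments per kilobase of transcript scaled to the number of mapped fragments, for 23959 genes. Of these, 12315 reached 0.5 FPKM in 3 or more of the 12 libraries and were tested with limma on log2(FPKM + 0.25). A gene was called when its Benjamini-Hochberg adjusted p was under 0.05 and its change over 1.5-fold; fold changes below are on this log2 scale, which understates the change of low genes. The 6 libraries were alike within a dose, with correlations of log2 values across genes of 0.9952 to 0.9962 among the 10 μM libraries and 0.9959 to 0.9965 among the 1 μM libraries, against 0.940 to 0.945 between a 10 μM and a 1 μM library. Lyz2, the lysozyme that marks myeloid cells, had 9609, 9508 and 9759.7 FPKM with 10 μM and 10377, 9633 and 9934 FPKM with 1 μM, and Csf1r, the M-CSF receptor, had 437, 442 and 456 FPKM with 10 μM and 414, 398 and 399 FPKM with 1 μM. Both were high in all 6 libraries, as the macrophage label says. Adgre1, a further macrophage identity gene, had 277.5, 284 and 297 FPKM with 10 μM against 414, 404 and 373 FPKM with 1 μM (-0.47, not called). T, B and NK cell markers passed the filter on low values in 2 of 14 cases and none was called. Of 10 dendritic cell markers 2 passed it and both were lower, with FPKM that summed to 0.649 to 1.28 in the 10 μM libraries against 1.86 to 2.51 in the 1 μM libraries. The 1 of 11 stromal markers that passed it, Pdgfrb, was at 0.0434 to 0.0589 FPKM with 10 μM against 0.596 to 0.644 FPKM with 1 μM (-1.53 ± 0.10), so both lists were near or under the filter. Of 10 mast cell, basophil and eosinophil markers 2 passed it and 1 was higher, and of 11 erythroid and megakaryocyte markers 2 passed it and 0 were called. These 2 erythroid and megakaryocyte markers were not near the filter. Their FPKM summed to 310 to 313 in the 10 μM libraries and 336 to 349 in the 1 μM libraries. Of 10 neutrophil markers 8 passed it, and their FPKM summed to 42.0 to 55.8 in the 10 μM libraries against 29.5 to 34.3 in the 1 μM libraries; 3 were higher with 10 μM, S100a9 at 23.9, 20.8 and 18.4 FPKM against 12.7, 10.2 and 13 FPKM with 1 μM, and Mpo and Elane, which averaged 1.05 and 0.987 FPKM with 10 μM and were not called at a pseudocount of 1. Their part in the results was not tested. In bulk RNA, fewer cells with a transcript and less of it per cell cannot be told apart.

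With 10 μM cpTLR-i, 1964 genes were higher (15.9% of the 12315 tested) and 1114 were lower (9.05%) than with 1 μM, so that 25.0% of all tested genes were called. Their libraries did not overlap between the doses for 1947 of the 1964 and 1112 of the 1114, against 69.1% of all tested genes. Because the genes were called on these same libraries, this follows largely from the calling and adds no support to it. The larger changes lay on the lower side. More than 8-fold changes were seen for 11 higher and 99 lower genes, and more than 16-fold for 1 higher and 47 lower genes. The summed mean level of the 1114 lower genes was 17276 FPKM with 10 μM against 54901 FPKM with 1 μM, and that of the 1964 higher genes was 26414 FPKM with 10 μM against 12488 FPKM with 1 μM. The higher genes had a median of 3.97 FPKM with 10 μM and 1.92 FPKM with 1 μM, against 4.51 FPKM in control. The lower genes had a median of 4.54 FPKM with 10 μM and 12.4 FPKM with 1 μM, against 3.55 FPKM in control. These sums and medians are a description of genes chosen by the same contrast. The median gene was 0.17 higher on the log2 scale with 10 μM, and 0.00 higher after the libraries were scaled to the median of their gene ratios. The split of the calls depends on that scaling: 63.8% of called genes were higher in the values as deposited, 50.9% after quantile normalization (1346 higher and 1296 lower) and 48.7% after median-ratio scaling (1319 higher and 1388 lower). No called gene changed direction under either.

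**Figure D1:**
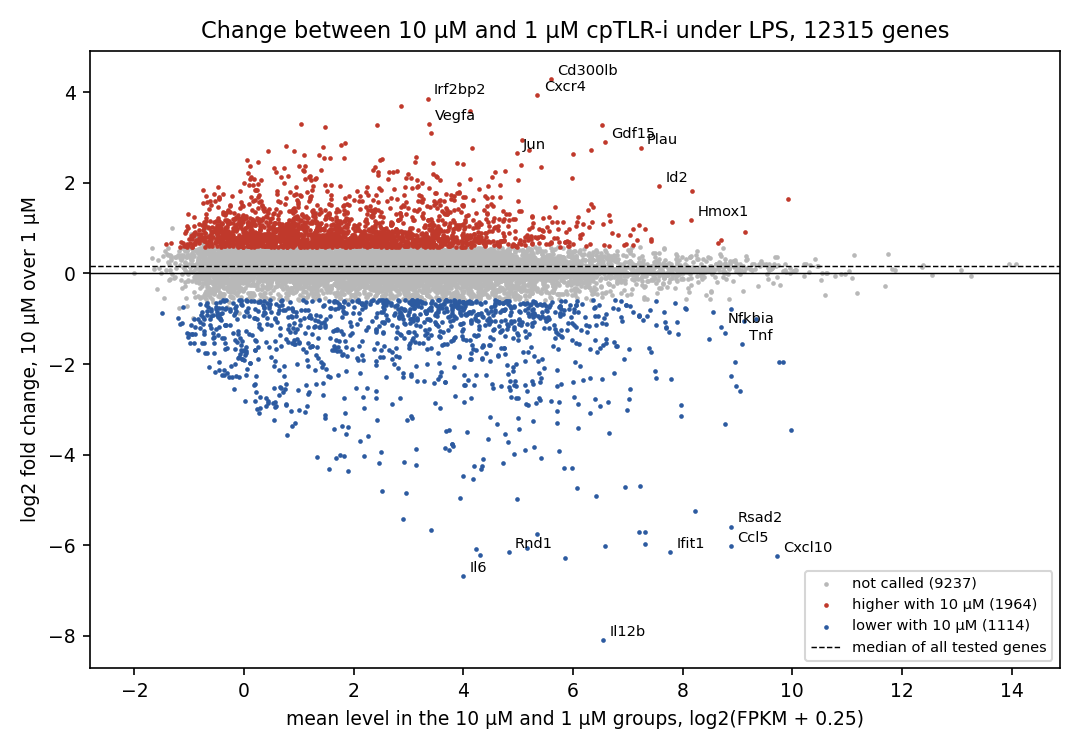
Change of 12315 genes between 10 μM and 1 μM cpTLR-i (vertical axis, log2 fold change, 10 μM over 1 μM) against their mean level in both groups (horizontal axis, log2(FPKM + 0.25)); red points are the 1964 genes higher and blue points the 1114 genes lower with 10 μM, and the dashed line is the median of all genes at 0.17. The blue points reach -8.09 at Il12b, whereas the red points end with Cd300lb at 4.3.

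The 3 lowest fold changes of the comparison were those of the cytokine genes Il12b, Il6 and Il27. Of 26 proinflammatory cytokine genes tested, 23 were lower with 10 μM, 2 were higher and 1 was not called, with a median log2 fold change of -2.85 against 0.17 over all genes. Il12b, which encodes the p40 subunit shared by IL-12 and IL-23, had 0.538, 0.407 and 0.378 FPKM with 10 μM against 203, 181 and 177 FPKM with 1 μM (log2 fold change -8.09 ± 0.10, SE, adjusted p = 4.9e-15). Its 10 μM libraries all lay far below its 1 μM libraries. Il6, a cytokine of acute inflammation and of Th17 cell differentiation, had 0.0742, 0.103 and 0 FPKM with 10 μM, where 1 library was listed at 0, against 35.1, 30.6 and 28 FPKM with 1 μM. Il27, a subunit of IL-27, had 1.15, 1.21 and 1.25 FPKM with 10 μM against 118, 116 and 106 FPKM with 1 μM (-6.29 ± 0.11). The IL-1 genes followed the same direction: Il1b had 17.2, 15.5 and 12.9 FPKM with 10 μM against 642, 536 and 567 FPKM with 1 μM (-5.24 ± 0.14), and Il1a had 6.03, 5.22 and 4.51 FPKM against 182, 150.4 and 165 FPKM with 1 μM (-4.92 ± 0.10). Neither returned to the control level, since every 10 μM library lay above the control mean of 0.298 FPKM for Il1b and 0.407 FPKM for Il1a.

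The size of the step differed widely among the cytokines. Tnf, the early cytokine that acts through TNF receptors, kept the highest level of the list, 297, 287 and 246 FPKM with 10 μM against 853, 768 and 815 FPKM with 1 μM (-1.55 ± 0.08, adjusted p = 9.8e-10). Il18, which is made ahead of activation and released after cleavage by caspase-1, had 3.71, 3.53 and 4.20 FPKM with 10 μM against 8.85, 8.77 and 8.34 FPKM with 1 μM (-1.13 ± 0.07). Il23a, the p19 subunit of IL-23, was low throughout, at 0.0903, 0 and 0.0176 FPKM with 10 μM (1 library listed at 0) and 2.11, 1.56 and 1.58 FPKM with 1 μM, and Csf2, the gene of GM-CSF, was at 0.263, 0.195 and 0.17 FPKM with 10 μM and 3.65, 3.19 and 3.95 FPKM with 1 μM. Tnfsf15, a TNF-family ligand, had 0.251, 0.278 and 0.358 FPKM with 10 μM against 39.9, 35.9 and 33.9 FPKM with 1 μM (-6.08 ± 0.08). The 2 exceptions were Il1rn, the IL-1 receptor antagonist, at 0.71 (0.53 and not called after median-ratio scaling), and Osm, oncostatin M of the IL-6 family, which had 13.8, 13.9 and 11.8 FPKM with 10 μM against 3.13, 2.48 and 2.98 FPKM with 1 μM (2.11 ± 0.08).

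Among chemokines, which guide leukocytes along gradients, 18 of 24 genes tested were lower with 10 μM and 0 were higher (median -2.0). Cxcl10, an interferon-linked ligand of CXCR3, had 26.1, 20.5 and 19.9 FPKM with 10 μM against 1708, 1665 and 1639.7 FPKM with 1 μM (-6.23 ± 0.08, adjusted p = 6.9e-15). Ccl5, or RANTES, had 16.4, 13.1 and 13 FPKM with 10 μM against 882, 937 and 969 FPKM with 1 μM (-6.02 ± 0.11). In the same cluster of monocyte and T cell attractants Ccl4 had 179, 174 and 148 FPKM against 1840.0, 1807 and 1862 FPKM with 1 μM (-3.46 ± 0.05), whereas Ccl3 had 399, 394 and 325 FPKM against 1519.9, 1387 and 1418 FPKM with 1 μM (-1.96 ± 0.07). The monocyte attractant Ccl2 had 178, 169 and 142 FPKM with 10 μM against 824, 719 and 803 FPKM with 1 μM (-2.26 ± 0.07). Cxcl2, a neutrophil attractant, was among the 6 genes of the list that were not called, which lay between -0.13 and 0.28. It had 263, 247 and 171 FPKM with 10 μM and 274, 210.2 and 249.98 FPKM with 1 μM, so that the groups overlapped (log2 fold change -0.12 ± 0.15, adjusted p = 0.49); without the third 10 μM library the value was 0.07.

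Interferon-β and the genes it drives were lower almost without exception. Ifnb1 had 0.0388, 0.0851 and 0.163 FPKM with 10 μM against 15.1, 13.7 and 14.4 FPKM with 1 μM (-5.42 ± 0.11, adjusted p = 1.2e-13). Of 59 interferon-stimulated genes 57 were lower and 0 higher, with a median of -2.88, and the libraries of the doses did not overlap for any of the 59, with 10 μM the lower side, as for 18.9% of all genes. The other two, Bst2 at -0.28 and Oas3 at -0.48, did not reach the 1.5-fold minimum, which Oas3 passed after median-ratio scaling at -0.66. Ifit1, which binds viral RNA ends, had 6.25, 5.24 and 5.93 FPKM with 10 μM against 458, 421 and 409.7 FPKM with 1 μM (-6.15 ± 0.11). Isg15, the ubiquitin-like modifier, had 11.7, 10.6 and 10.2 FPKM with 10 μM against 290.3, 282 and 286 FPKM with 1 μM (-4.69 ± 0.07). Rsad2, or viperin, had 20.1, 18.2 and 18.8 FPKM with 10 μM against 975, 925 and 877 FPKM with 1 μM (-5.59 ± 0.10). The dynamin-like Mx1 (-6.02 ± 0.14) and Mx2 (-6.07 ± 0.14), the guanylate-binding protein gene Gbp5 (-5.96 ± 0.09) and Oasl1 (-5.76 ± 0.07) gave changes of like size. Members that share sequence, such as Tgtp1 with Tgtp2 and Ifit3 with Ifit3b, may trade reads, and their separate values are uncertain.

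Of 28 interferon regulatory factor, JAK and STAT genes, which carry this response, 11 were lower and 2 higher. All tested genes were lower in 9.05% and higher in 15.9% of cases. The median of the 28, -0.39, was nearer to 0 than that of the response genes. Stat5a, a STAT of cytokine receptors, had 10.8, 11 and 11.4 FPKM with 10 μM against 92.9, 90.5 and 93.9 FPKM with 1 μM (-3.03 ± 0.03, adjusted p = 2.0e-15). Irf1 had 62.6, 55.8 and 57.5 FPKM with 10 μM against 451, 416 and 462 FPKM with 1 μM (-2.91 ± 0.05), Jak2 had 10.1, 10.5 and 10.9 FPKM against 73.9, 73.6 and 69.3 FPKM with 1 μM (-2.75 ± 0.04), and Irf7 had 7.95, 8.47 and 8.35 FPKM against 46.1, 53.4 and 44.9 FPKM with 1 μM (-2.50 ± 0.09). Irf3 (-0.34) and Jak1 (-0.21) were not called. Irf2bp2, a corepressor partner of IRF2, went the other way, with 18.3, 18.4 and 19.6 FPKM with 10 μM against 0.855, 1.07 and 1.29 FPKM with 1 μM (3.86 ± 0.09).

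Promoters of many interferon-stimulated genes hold the interferon-stimulated response element (ISRE), a site of interferon regulatory factors. The stretches upstream of Ifit1 (chr19:34640772-34640821, plus strand, bases -117 to -68 from the start), Isg15 (chr4:156200868-156200904, minus strand, -86 to -50) and Cxcl10 (chr5:92348976-92349110, minus strand, -221 to -87) are shown as examples, chosen after their values were seen, of genes that were abundant with 1 μM and more than 16-fold lower with 10 μM. They are RefSeq sequences of GRCm38.p6, written 5′ to 3′ on the strand of the gene, and capitals mark matches to the ISRE core GAAANNGAA on either strand and, in Cxcl10, also to a κB site (GGGANTTCC or GGANTTTCC on either strand).
Ifit1: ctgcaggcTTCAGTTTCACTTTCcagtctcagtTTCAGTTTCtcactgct
Isg15: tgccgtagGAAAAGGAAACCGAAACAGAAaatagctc
Cxcl10: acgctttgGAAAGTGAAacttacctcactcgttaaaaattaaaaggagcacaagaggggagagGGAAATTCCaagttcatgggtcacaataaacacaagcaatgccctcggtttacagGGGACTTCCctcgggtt
Ifit1 and Isg15 have 3 overlapping or neighbouring ISRE matches each in these stretches, and Cxcl10 has 1 ISRE match ahead of 2 κB matches.

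In windows of 300 bases, 250 before and 50 after the start, an ISRE core match was found in 15.3% of 1104 promoters of genes lower with 10 μM, in 6.03% of 1939 promoters of genes higher with 10 μM, and in 7.48% of all 11692 promoters of tested genes. Of 54 promoters of the interferon-stimulated gene list 33 (61.1%) had one. A κB match was found in 6.34% of promoters of lower genes, 2.89% of those of higher genes and 3.70% of all. The cAMP response element TGACGTCA, in contrast, was in 1.90% of promoters of lower genes, 3.76% of those of higher genes and 3.03% of all. The AP-1 site TGANTCA was in 9.42% of promoters of lower genes, 5.78% of those of higher genes and 5.28% of all. A match is a run of letters in the window and not evidence of binding, and genes with several starts are counted once per promoter.

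**Figure D2:**
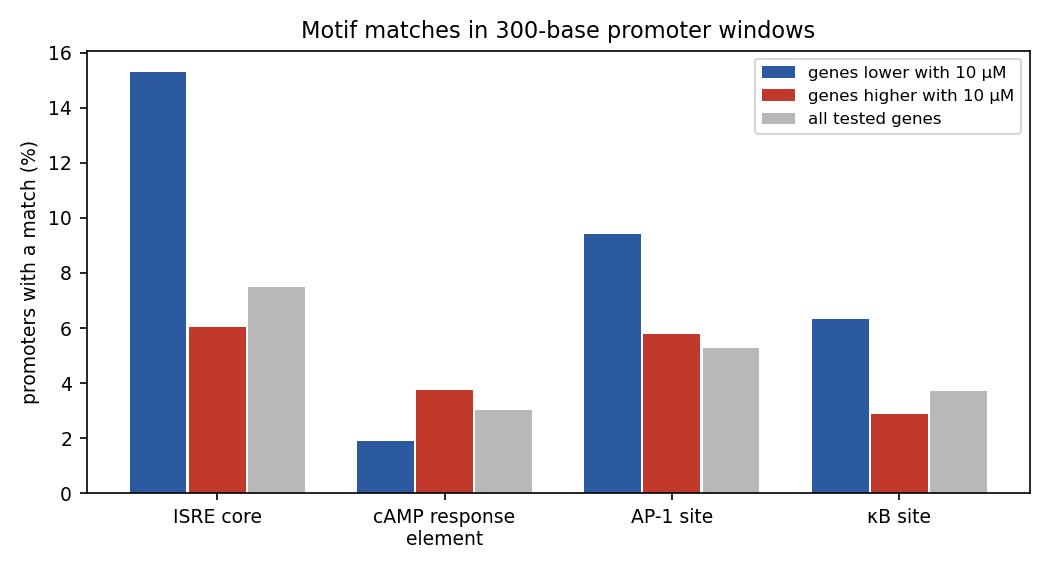
Share of promoters (vertical axis, percent) with a match to each of 4 motifs (horizontal axis) among genes lower with 10 μM cpTLR-i (blue), genes higher with 10 μM (red) and all tested genes (grey). The ISRE core shows the widest gap, 15.3% of lower and 6.03% of higher genes' promoters against 7.48% of all.

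Genes of the NF-κB pathway itself were lower by smaller amounts. NF-κB dimers are held in the cytoplasm by IκB proteins, several of which are NF-κB targets and restrain the pathway once made. Of 17 subunit, IκB and IκB kinase genes 12 were lower and 0 higher (median -0.84). Nfkbia, the gene of IκBα, had 276, 262 and 231 FPKM with 10 μM against 582, 563 and 588 FPKM with 1 μM (-1.18 ± 0.06, adjusted p = 6.0e-10). Its upstream stretch on the minus strand (chr12:55492660-55492833, -186 to -13) carries 2 κB matches, in capitals, and is shown as an example of the 9 of 23 promoters of this list with a match.
Nfkbia: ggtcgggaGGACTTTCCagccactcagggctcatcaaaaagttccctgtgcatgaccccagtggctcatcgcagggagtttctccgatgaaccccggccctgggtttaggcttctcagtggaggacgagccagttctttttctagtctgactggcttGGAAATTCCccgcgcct
The subunit genes Nfkb1 (-1.09 ± 0.03), Nfkb2 (-1.51 ± 0.04) and Rela (-0.84 ± 0.03) were lower, and Nfkbiz, an atypical IκB that acts in the nucleus on Il6 and other secondary genes, had 33.1, 28 and 29.6 FPKM with 10 μM against 153, 155 and 151 FPKM with 1 μM (-2.33 ± 0.11). Chuk (0.22) and Ikbkg (0.40), which encode IKK subunits, were not called. Icam1, an adhesion molecule and NF-κB target, had 160.0, 151 and 146 FPKM with 10 μM against 859.5, 853 and 856 FPKM with 1 μM (-2.49 ± 0.03, adjusted p = 5.1e-15).

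At the receptor, 12 of 29 Toll-like receptor and adaptor genes were lower and 4 higher, beside 9.05% lower and 15.9% higher over all tested genes. Cd14, the LPS-binding coreceptor, had 252, 253 and 244 FPKM with 10 μM against 638, 610.3 and 612 FPKM with 1 μM (-1.31 ± 0.03). Tlr2, the receptor of bacterial lipopeptides, had 121, 127 and 132 FPKM against 304, 284 and 276 FPKM with 1 μM (-1.18 ± 0.04), and Myd88 had 27.5, 29.2 and 31.1 FPKM against 61.1, 62.4 and 59.8 FPKM with 1 μM (-1.06 ± 0.04). Tlr4 was among the 4 that were higher, with 7.73, 8.42 and 9.86 FPKM with 10 μM against 5.07, 4.50 and 4.50 FPKM with 1 μM (0.85 ± 0.08, adjusted p = 9.4e-07). Tirap, the adaptor whose TIR domain gave the peptide its sequence, had 3.98, 4.37 and 4.39 FPKM with 10 μM against 6.80, 6.31 and 6.46 FPKM with 1 μM (-0.59 ± 0.05); it lay just past the fold minimum and missed it at -0.55 without the first 10 μM library, at -0.56 without the first 1 μM library and at -0.52 with a pseudocount of 1. Ly96, the gene of MD-2, was not called at -0.30.

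Feedback inhibitors were more often lower than higher. Of 23 signal brakes and mRNA decay factors 9 were lower and 3 higher, beside 9.05% lower and 15.9% higher over all tested genes. Socs3, an inhibitor of gp130 cytokine receptors, had 37.3, 33.8 and 28.2 FPKM with 10 μM against 231, 222 and 229 FPKM with 1 μM (-2.78 ± 0.09), and Socs1 (-4.10 ± 0.15) and Cish (-4.26 ± 0.07) were lower still. Tnfaip3, the ubiquitin-editing enzyme A20, had 83.4, 82 and 71.1 FPKM with 10 μM against 272, 257 and 263 FPKM with 1 μM (-1.74 ± 0.05). The group of mRNA decay factors that bind AU-rich elements did not share this direction: Zfp36l2 (2.14) and Zfp36l1 (1.46) were higher, and Zfp36, or tristetraprolin, was at 0.02 and not called, with its sign changing to -0.15 after median-ratio scaling.

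**Figure D3:**
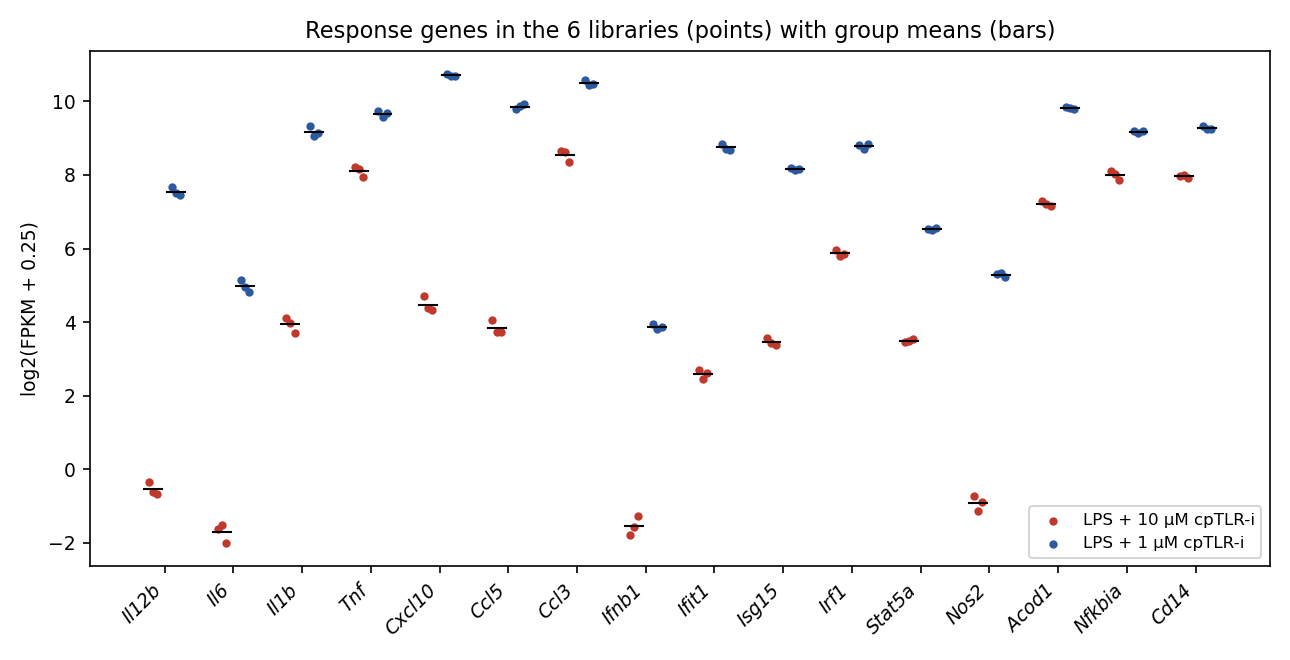
Levels of 16 response genes (vertical axis, log2(FPKM + 0.25)) in the 3 libraries with LPS and 10 μM cpTLR-i (red points, left) and the 3 with LPS and 1 μM (blue points, right), with group means as bars. The doses do not overlap for any of the 16, and the gap is widest for Il12b (-8.09) and narrowest for Nfkbia (-1.18).

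Of 26 itaconate, nitric oxide and prostaglandin genes, 9 were lower, 2 higher and 15 not called. All tested genes were lower in 9.05% and higher in 15.9% of cases. Nos2, inducible nitric oxide synthase, had 0.355, 0.205 and 0.286 FPKM with 10 μM against 39.3, 40.0 and 37.4 FPKM with 1 μM (-6.21 ± 0.09). Acod1, which makes itaconate from an intermediate of the citric acid cycle, stayed high at 157, 148 and 142 FPKM with 10 μM against 919.9, 907 and 879.9 FPKM with 1 μM (-2.60 ± 0.04, adjusted p = 1.9e-14). Ptgs2, or cyclooxygenase-2, had 8.56, 7.56 and 5.40 FPKM with 10 μM against 73.7, 65.1 and 68.5 FPKM with 1 μM (-3.25 ± 0.14). The 2 higher members, Odc1 (0.71, or 0.53 and not called after median-ratio scaling) and Srm (0.79), encode enzymes of polyamine synthesis. Among 19 MHC class II and costimulatory genes 9 were lower, 1 higher and 9 not called. Cd40, the receptor of T cell CD40 ligand, had 8.82, 8.32 and 9.48 FPKM with 10 μM against 237, 239.9 and 237 FPKM with 1 μM (-4.71 ± 0.08), and Cd274, or PD-L1, had 50.2, 52.6 and 51.7 FPKM against 197, 191 and 189 FPKM with 1 μM (-1.90 ± 0.05). Cd86, a ligand of CD28, was the 1 higher member, with 9.45, 9.44 and 10.6 FPKM with 10 μM against 4.14, 4.21 and 3.99 FPKM with 1 μM (1.20 ± 0.07). The MHC class II chains H2-Aa (0.21), H2-Ab1 (0.11, or -0.07 after median-ratio scaling) and Cd74 (-0.09) were not called. Of 23 inflammasome and cytosolic sensing genes 10 were lower and 2 higher. Nod2, a sensor of bacterial cell wall fragments, had 3.89, 4.08 and 3.62 FPKM with 10 μM against 19.3, 19.5 and 19.4 FPKM with 1 μM (-2.25 ± 0.05), while Nlrp3 was lower by a smaller amount (-0.75 ± 0.04).

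**Figure D4:**
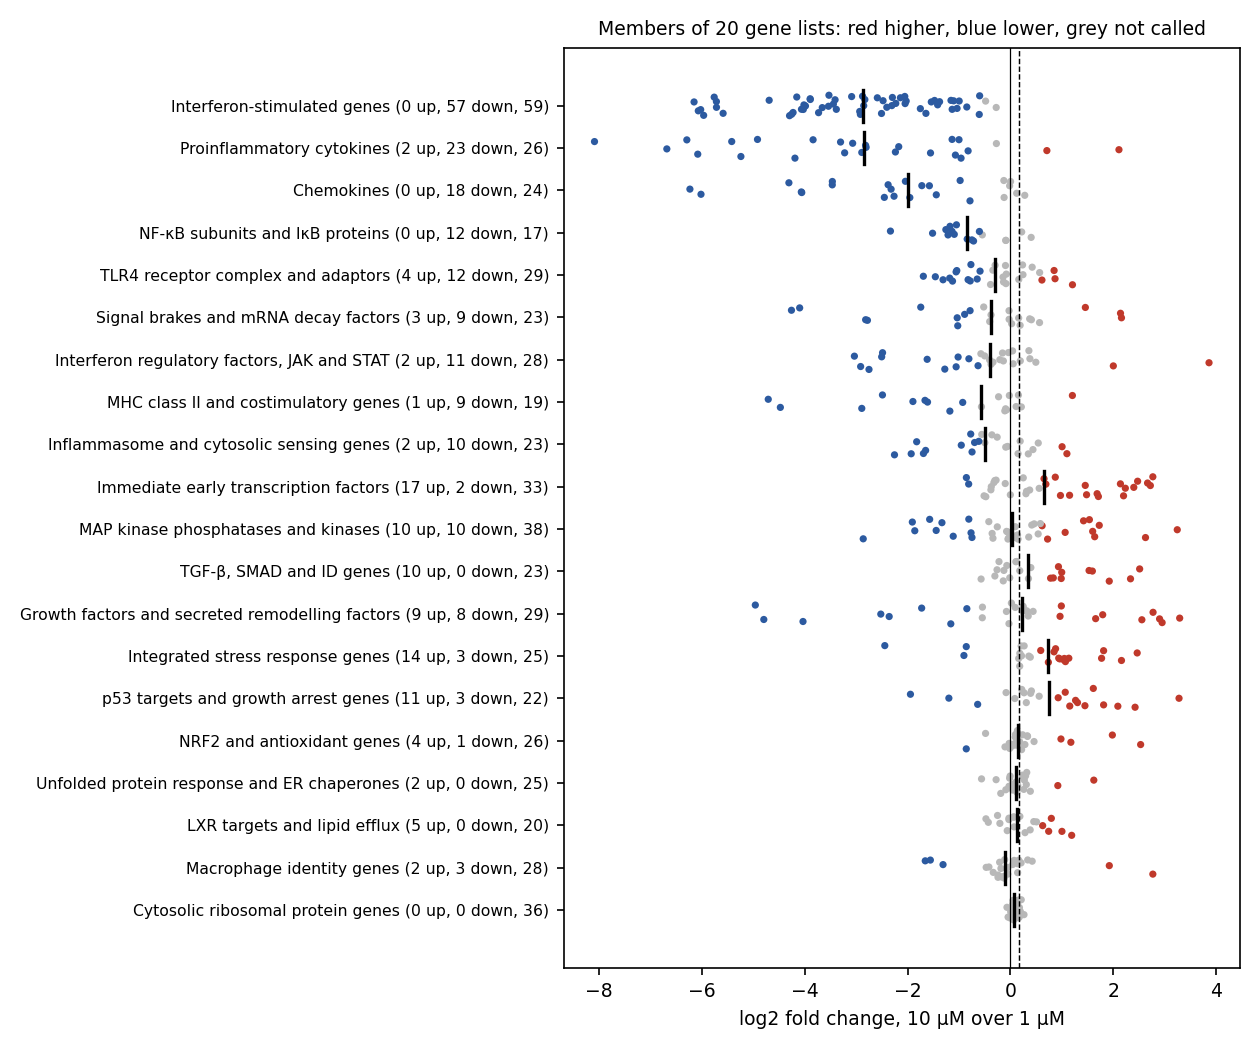
Log2 fold change, 10 μM over 1 μM (horizontal axis), of the members of 20 gene lists (rows; the counts after each name are members higher, lower and tested); red and blue points are members called higher and lower, grey points are not called, black bars are list medians and the dashed line is the median of all genes at 0.17. The medians run from -2.88 for interferon-stimulated genes to 0.74 for p53 targets and growth arrest genes.

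In contrast, the early transcription factors that are switched on within minutes of a stimulus were more often higher than lower with 10 μM. Of 33 immediate early factor genes 17 were higher, 2 lower and 14 not called (median 0.65). Fos and Jun, which pair to form AP-1, both rose: Fos had 58.1, 59.2 and 48.9 FPKM with 10 μM against 10.5, 8.85 and 11.7 FPKM with 1 μM (2.40 ± 0.09), and Jun had 55.8, 53 and 53.2 FPKM against 8.24, 7.55 and 9.19 FPKM with 1 μM (2.66 ± 0.06, adjusted p = 6.5e-13). Myc, the growth regulator, had 14.5, 14.5 and 14.4 FPKM with 10 μM against 2.61, 2.14 and 2.47 FPKM with 1 μM (2.47 ± 0.10). Bhlhe40, a helix-loop-helix repressor, had 61.1, 65.5 and 64.3 FPKM with 10 μM against 9.92, 8.64 and 9.86 FPKM with 1 μM (2.72 ± 0.06). The direction was not uniform within the AP-1 and EGR families, since Junb (-0.32) was not called and Egr1, at 5.19, 5.55 and 5.08 FPKM with 10 μM against 8.96, 9.61 and 9.79 FPKM with 1 μM, was lower (-0.81 ± 0.08).

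MAP kinases and their phosphatases moved both ways. Of 38 genes 10 were higher and 10 lower, beside 15.9% higher and 9.05% lower over all tested genes. The higher group held 8 dual-specificity phosphatases and Spry2, which damp MAP kinase signaling, with 1 kinase, Map3k1, whereas the kinases Map3k5 (-2.86 ± 0.06), Map3k8 (-1.44 ± 0.06) and Mapk14 (-1.11 ± 0.03), the gene of p38α, were lower. Dusp10, a phosphatase of p38 and JNK, had 4.64, 5.10 and 4.64 FPKM with 10 μM against 0.318, 0.28 and 0.252 FPKM with 1 μM (3.24 ± 0.09). Dusp1 had 131, 123 and 102 FPKM with 10 μM against 40.4, 36.4 and 45.5 FPKM with 1 μM (1.53 ± 0.08), and not all phosphatases went this way, as Dusp2 (-1.57), Dusp14 (-1.86) and Dusp16 (-0.77) were lower. Upstream of Dusp1 lies a match to the cAMP response element, and upstream of Emp1, a tetraspan membrane protein gene, lie 2 AP-1 matches, shown in capitals as an example of each motif among higher genes. The AP-1 share of promoters of higher genes, 5.78%, was near that of all promoters, 5.28%, and below that of lower genes, 9.42%. Emp1 had 419, 460.4 and 463 FPKM with 10 μM against 134, 120.2 and 126 FPKM with 1 μM (1.82 ± 0.05). The stretches are chr17:26508600-26508623 on the minus strand (-151 to -128) for Dusp1 and chr6:135362778-135362920 on the plus strand (-153 to -11) for Emp1.
Dusp1: agggcgggTGACGTCAccgcccgg
Emp1: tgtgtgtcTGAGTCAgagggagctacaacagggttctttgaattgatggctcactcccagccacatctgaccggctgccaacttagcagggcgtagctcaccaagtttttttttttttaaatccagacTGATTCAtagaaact

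Secreted growth and remodelling factors moved both ways, 9 higher and 8 lower of 29, beside 15.9% higher and 9.05% lower over all tested genes. Vegfa, the angiogenic factor, had 17.9, 19.9 and 17.5 FPKM with 10 μM against 1.52, 1.68 and 1.78 FPKM with 1 μM (3.29 ± 0.06, adjusted p = 1.2e-13). Over the full series it averaged 12.2 FPKM in control, 1.78 FPKM with LPS alone, 1.66 FPKM with 1 μM and 18.4 FPKM with 10 μM. Gdf15, a stress-induced member of the TGF-β superfamily, had 196, 172 and 140.3 FPKM with 10 μM against 19.6, 20.8 and 27.2 FPKM with 1 μM (2.90 ± 0.12). Plau, the plasminogen activator urokinase, had 259, 263 and 267 FPKM with 10 μM against 40.8, 34.6 and 39.7 FPKM with 1 μM (2.77 ± 0.05), while Plat, the tissue-type activator, had 0.142, 0.134 and 0.168 FPKM against 11.7, 10.4 and 10.2 FPKM with 1 μM (-4.79 ± 0.07). The activators of plasminogen thus moved in opposite directions, and the inhibitor gene Serpinb2 (-4.03) was lower. Edn1, the vasoconstrictor endothelin-1, had 0.783, 0.725 and 0.6 FPKM with 10 μM against 32.3, 26.8 and 29 FPKM with 1 μM (-4.96 ± 0.10).

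Of 23 TGF-β, SMAD and ID genes 10 were higher and 0 lower (median 0.35). No receptor was among the 10, which included SMAD cofactors and inhibitors. Id1 (9.15, 9.75 and 8.67 FPKM with 10 μM against 1.52, 1.22 and 1.49 FPKM with 1 μM), Id2 (279.7, 302 and 317 FPKM against 83.3, 77.3 and 76.3 FPKM with 1 μM) and Id3 encode inhibitors of helix-loop-helix factors, and Smad6, Smad7 and Bambi encode inhibitors of the pathway. Smad7 had 2.44, 2.79 and 2.30 FPKM with 10 μM against 0.295, 0.242 and 0.357 FPKM with 1 μM (2.33 ± 0.12), and Dab2ip, low throughout, had 0.64, 0.706 and 0.657 FPKM against 0.232, 0.193 and 0.205 FPKM with 1 μM (1.00 ± 0.11, or 0.46 and not called with a pseudocount of 1). The receptor genes Tgfbr1 (-0.57) and Tgfbr2 (-0.14) were not called, although Tgfbr1 was called lower after median-ratio scaling (-0.75) and without the third 10 μM library (-0.63), the second 1 μM library or the third 1 μM library (both -0.59).

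**Figure D5:**
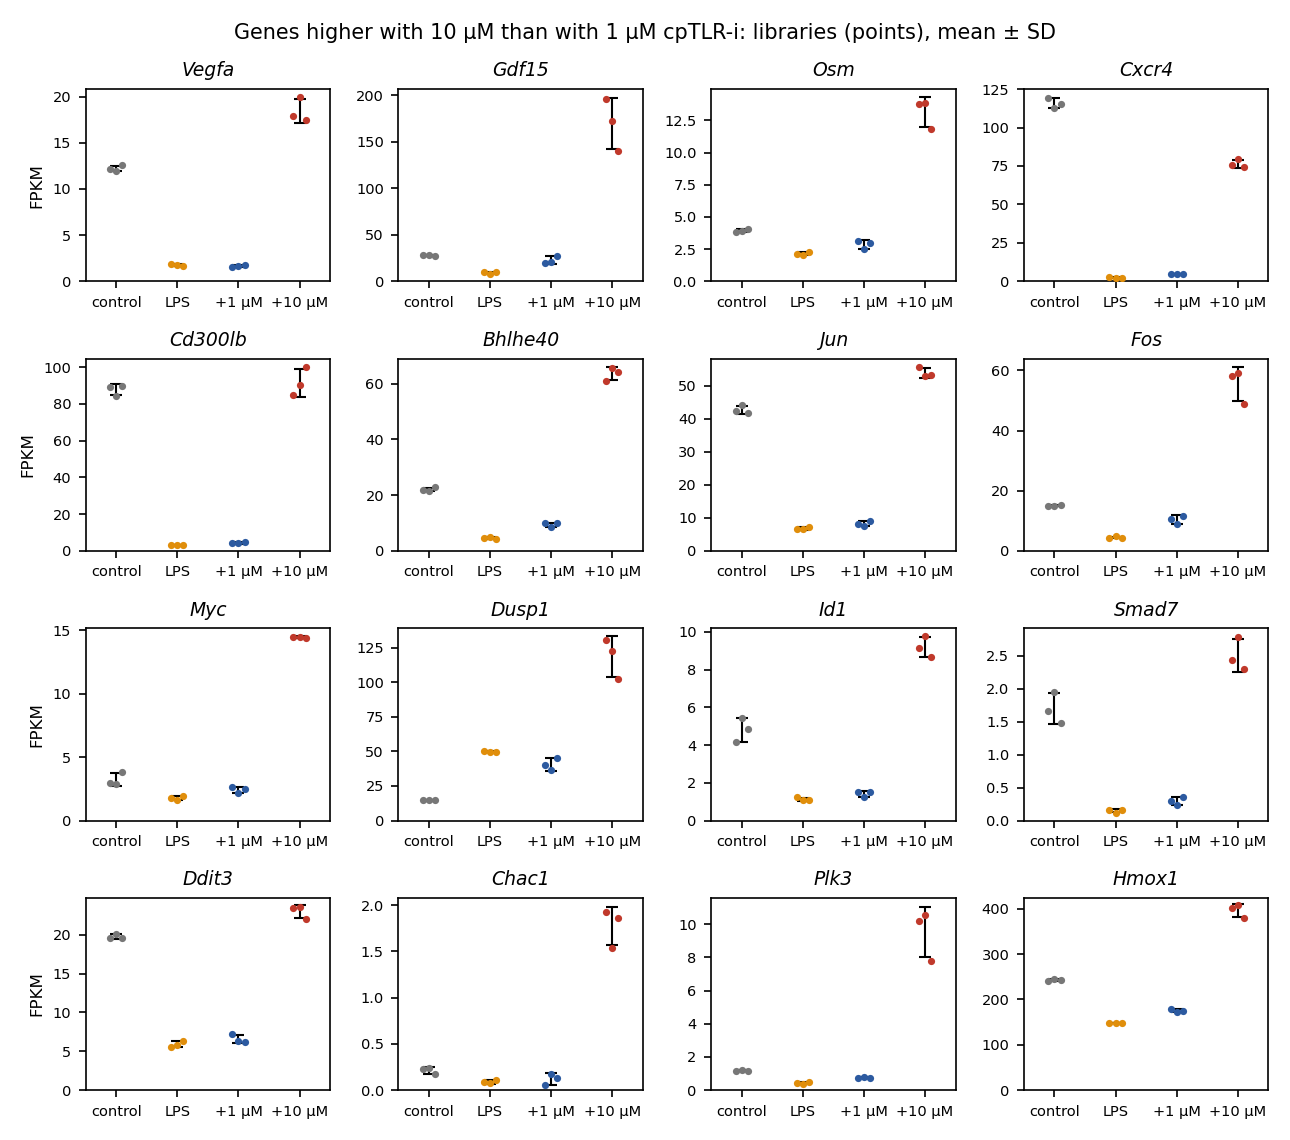
Levels of 16 genes that were higher with 10 μM cpTLR-i (vertical axes, FPKM, from 0) over the series of control, LPS alone, LPS with 1 μM and LPS with 10 μM cpTLR-i; points are libraries and error bars are mean ± SD of 3. Cxcr4, Cd300lb and Vegfa were low with LPS alone and with 1 μM and far above both with 10 μM, whereas Chac1 and Plk3 with 10 μM also stood far above control.

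The 2 highest fold changes of the comparison were those of membrane receptors. Cd300lb, a CD300 receptor of myeloid cells, had 84.8, 90.1 and 99.9 FPKM with 10 μM against 4.26, 4.08 and 4.94 FPKM with 1 μM (4.30 ± 0.07, adjusted p = 1.9e-14). Cxcr4, the receptor of CXCL12, had 75.7, 79.3 and 74 FPKM with 10 μM against 4.60, 4.72 and 4.94 FPKM with 1 μM (3.94 ± 0.06), and no library came near the other group. In control, Cd300lb averaged 87.7 FPKM and Cxcr4 116 FPKM, so that Cd300lb with 10 μM was near its control level and Cxcr4 below it. Among the other chemoattractant receptors, 4 more of 28 were higher, including Cx3cr1 (1.39), and 10 were lower, and in TPM 9 were higher and 11 lower. Over all tested genes 15.9% were higher and 9.05% lower. The lower ones included Fpr2, a formyl peptide receptor, at 0.331, 0.428 and 0.324 FPKM with 10 μM against 6.08, 6.31 and 5.66 FPKM with 1 μM (-3.36 ± 0.14), and the adenosine receptor gene Adora2a (-3.77 ± 0.08). Rhov, an atypical small GTPase (3.69 ± 0.08), Arhgap25, a GTPase-activating protein of leukocytes (3.58 ± 0.08), and Rab7b, a GTPase of late endosomes (2.64 ± 0.04), were higher. Rnd1, another small GTPase, had 0.536, 0.555 and 0.522 FPKM with 10 μM against 59, 53 and 55.4 FPKM with 1 μM (-6.15 ± 0.07).

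Genes of the integrated stress response, which runs through the factor ATF4 when translation initiation is checked, were more often higher than lower. Of 25 such genes 14 were higher, 3 lower and 8 not called (median 0.74). Atf4 had 109.6, 113 and 110.5 FPKM with 10 μM against 51.2, 48.5 and 51.8 FPKM with 1 μM (1.13 ± 0.03, adjusted p = 6.8e-12). Ddit3, or CHOP, had 23.4, 23.6 and 22.1 FPKM with 10 μM against 7.24, 6.31 and 6.21 FPKM with 1 μM (1.77 ± 0.06), and Trib3, a pseudokinase it induces, had 3.75, 3.75 and 3.08 FPKM against 0.529, 0.665 and 0.592 FPKM with 1 μM (2.16 ± 0.11). Chac1, a glutathione-degrading enzyme, had 1.93, 1.54 and 1.86 FPKM with 10 μM against 0.0551, 0.176 and 0.127 FPKM with 1 μM (2.46 ± 0.14). Control averaged 48.6 FPKM for Atf4, 19.8 FPKM for Ddit3 and 0.214 FPKM for Chac1. The 3 lower members were Nupr1 (-2.44 ± 0.06), the cystine transporter gene Slc7a11 (-0.86 ± 0.06) and Ppp1r15a (-0.90), the phosphatase cofactor that ends the response. In the unfolded protein response list, the ER sensors Ern1 (1.62 ± 0.06) and Eif2ak3 (0.92 ± 0.08) were higher, and the other 23 of 25, chaperones among them, were not called; Hspa5, or BiP, was at -0.56, called lower at -0.74 after median-ratio scaling, and Xbp1 was at -0.19.

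Growth arrest genes were likewise more often higher than lower. Of 22 p53 targets and growth arrest genes 11 were higher and 3 lower (median 0.74), with Trp53 itself not called at -0.09. Plk3, a stress-responsive polo-like kinase, had 10.2, 10.6 and 7.78 FPKM with 10 μM against 0.705, 0.79 and 0.757 FPKM with 1 μM (3.28 ± 0.11), Gadd45a had 24.3, 26.9 and 28.1 FPKM against 4.54, 4.63 and 5.01 FPKM with 1 μM (2.42 ± 0.08), and Mdm2, the ligase of p53, had 143, 150.3 and 127 FPKM against 64.8, 60.0 and 63.1 FPKM with 1 μM (1.15 ± 0.05). The cell cycle inhibitor gene Cdkn1a, or p21, a leading target of p53, was lower, at 208, 207 and 195 FPKM with 10 μM against 824, 769 and 755 FPKM with 1 μM (-1.94 ± 0.04). Gadd45b was lower too, unlike Gadd45a, at 126, 129 and 121 FPKM with 10 μM against 282, 288 and 294 FPKM with 1 μM (-1.20 ± 0.03). The summed mean level of the list was 1041 FPKM with 10 μM against 1483 FPKM with 1 μM, although more members were higher. Control averaged 24.9 FPKM for Gadd45a and 127 FPKM for Cdkn1a. Of 26 NRF2 and antioxidant genes 4 were higher, 1 was lower and 21 were not called, beside 15.9% higher and 9.05% lower over all tested genes. Hmox1, heme oxygenase-1, had 402, 407 and 379.6 FPKM with 10 μM against 179.9, 172 and 174 FPKM with 1 μM (1.17 ± 0.03), Gclc had 24.5, 24.7 and 22.8 FPKM against 5.93, 5.91 and 5.83 FPKM with 1 μM (1.98 ± 0.04), and Nqo1, a standard NRF2 target, was at 0.14 and not called (-0.03 after median-ratio scaling). In the survival gene list, 8 of 20 were lower and 3 higher; Bcl2 had 2.15, 2.15 and 2.05 FPKM with 10 μM against 0.419, 0.373 and 0.457 FPKM with 1 μM (1.83 ± 0.09), whereas Bcl2l11, the death-promoting BIM, was lower (-1.88 ± 0.05). The survival genes Cflar (-1.44 ± 0.06) and Birc3 (-0.68 ± 0.06) were lower too. The near-identical Bcl2a1a, Bcl2a1b and Bcl2a1d were all lower, with uncertain separate values.

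Heat shock genes had 2 higher and 5 lower of 20, with Hsph1 (0.84 ± 0.06) among the higher and Hspa1b (-1.27 ± 0.13), which shares sequence with Hspa1a, among the lower. Metallothionein and zinc transport genes had 2 higher and 4 lower of 16: the zinc-binding metallothionein gene Mt2 had 47.4, 48.7 and 37.9 FPKM with 10 μM against 122, 123 and 127 FPKM with 1 μM (-1.47 ± 0.07), and the zinc exporter gene Slc30a1 was higher (0.97 ± 0.04). Cytosolic ribosomal protein genes (0 of 36 called), nuclear-encoded oxidative phosphorylation genes (0 of 30) and mitochondrially encoded genes (0 of 13) had log2 fold changes between -0.17 and 0.29. Macrophage identity genes had 2 higher and 3 lower of 28, with Cebpa (1.92 ± 0.08) among the higher and Fcgr2b (-1.66 ± 0.03) and Cd14 (-1.31 ± 0.03) among the lower. Cholesterol synthesis and uptake genes had 2 lower of 24, and LXR targets had 5 higher of 20. HIF-1 and glycolysis genes had 5 higher and 3 lower of 30, and lysosomal genes had 4 higher and 2 lower of 32. Cell cycle genes had 4 higher and 2 lower of 30. Beside these counts stand 15.9% higher and 9.05% lower over all tested genes, and whether a list differs from those shares was not tested. After median-ratio scaling the counts higher were 3 for LXR targets, 2 for HIF-1 and glycolysis genes, 1 for lysosomal genes and 2 for cell cycle genes, and the counts lower were 4 for cholesterol genes and 5 for macrophage identity genes. Pparg, a lipid-sensing nuclear receptor on the alternative activation list, had 17.4, 18.3 and 21.1 FPKM with 10 μM against 4.46, 4.06 and 4.48 FPKM with 1 μM (2.06 ± 0.07), but that list had 2 higher and 1 lower of 15, and Mrc1, the mannose receptor, was at 0.06 and not called (-0.11 after median-ratio scaling).

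The 2 dose steps were also compared with each other, as the change with 10 μM over 1 μM minus the change with 1 μM over LPS alone. The steps are unequal, the first from no peptide to 1 μM and the second from 1 μM to 10 μM. What the larger rise in dose contributes to a difference was not tested. In the same fit, 1375 genes had a second step that was higher than the first (11.2% of the 12315 tested) and 1075 a second step that was lower (8.73%), 19.9% in all. This split also depends on the scaling, with 1027 higher and 1284 lower after median-ratio scaling, 1086 higher and 1186 lower after quantile normalization, and 877 higher and 897 lower at a pseudocount of 1. Of the 1114 genes lower with 10 μM than with 1 μM, 972 had a second step lower than the first, and of the 1964 higher genes, 1259 had a second step higher than the first. These genes were chosen by their second step, so a difference in the same direction is largely built into the choice. For the cytokines 23 of 26 had the lower second step, for interferon-stimulated genes 55 of 59, for chemokines 18 of 24 and for NF-κB genes 11 of 17. All of Il12b, Il6 and Cxcl10 were also called lower in the first step, by less. Il12b gave -8.09 in the second step and -0.67 in the first (difference -7.41), Il6 gave -6.68 and -0.92, and Cxcl10 gave -6.23 and -0.62. Nos2 was at -6.21 in the second step and at -0.13 in the first, where it was not called. Rnd1, Adamts4, Stat5a and Icam1 had the smallest p for a lower second step, and Cxcr4, Cd300lb, Rab7b and Plau for a higher one. Adamts4, a matrix protease, had 0.184, 0.177 and 0.12 FPKM with 10 μM against 21.3, 19.5 and 20.6 FPKM with 1 μM, and 25.8 FPKM on average with LPS alone. Fos moved in both steps, 2.40 in the second and 1.13 in the first (difference 1.27 ± 0.15, adjusted p = 2.4e-05), and Gdf15 gave 2.90 and 1.26 (difference 1.64 ± 0.21). Both steps use the 1 μM libraries, which the test of the difference takes into account.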

How the data were processed

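BMDM RNA was sequenced from TruSeq mRNA libraries (called Standard in the study's methods and Stranded in the labels). The authors mapped reads to mm10 with HISAT2, assembled and quantified them with StringTie, and deposited FPKM and TPM per gene. No counts were used here, and low FPKM values multiplied by transcript length did not give whole multiples, so the depth of each library is unknown and no counting interval is given. Each library's FPKM summed to between 403473 and 422014 over all genes.

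The 12 libraries were fitted together with limma 3.58.1 (R 4.3.3) on log2(FPKM + 0.25), with trended empirical Bayes variances, the 4 groups as the only terms, two-sided contrasts of group means and Benjamini-Hochberg adjustment over 12315 genes that reached 0.5 FPKM in 3 or more libraries. All 4 groups share 1 estimate of the spread because each has 3 libraries. The study's count test could not be run on these values. The fit was tested on simulated data. The members and gene lists were chosen with earlier results of these data known. List counts and medians, and promoter matches in the RefSeq promoter table for GRCm38.p6 (9204 of the tested genes found there), are descriptions without a test. Named genes were the 12 highest and 12 lowest fold changes and 6 highest and 6 lowest FPKM differences among non-overlapping called genes of at least 2 FPKM in a dose group, up to 5 called and 3 core members per list, genes the study names, the 2 most abundant markers of other cell types, and the genes most variable among replicates or most different between the steps; other list members named were chosen after their values were seen. TPM, other pseudocounts (0.1 and 1), filters, scalings, fold minimums, a replicate block and leaving out each library were tried as alternatives. Some genes are not reported here.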

Additional observations from a re-analysis of the deposited data

How the results depend on the processing

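No called gene changed direction under any alternative tried for the 10 μM against 1 μM contrast. The counts of 1964 higher and 1114 lower genes became 1251 higher at a pseudocount of 1, 6118 higher and 2234 lower without a fold minimum, and 669 higher and 676 lower with a 2-fold minimum. The counts of 1375 higher and 1075 lower for the difference of the dose steps became 877 higher at a pseudocount of 1, 3193 higher and 1818 lower without a fold minimum, and 450 higher and 642 lower with a 2-fold minimum. These changes follow from the construction of each alternative, since a larger pseudocount shrinks the change of low genes. Leaving out 1 library at a time gave 1852 to 2111 higher and 1067 to 1148 lower genes. Deviations of same-numbered 10 μM and 1 μM libraries correlated at -0.165, 0.04 and -0.0999, and not every library correlated best with its own number. A fit with the replicate number as a block called 1963 higher and 1115 lower genes. With 3 libraries a group, these values cannot settle whether same-numbered libraries shared a culture or animal, and the labels do not say it. Interferon-stimulated genes gave 55 to 58 lower members under TPM, a pseudocount of 1 and the 2 scalings, and chemokines gave 18. HIF-1 and glycolysis genes, 5 higher of 30, gave 3 without the second 1 μM library, at a pseudocount of 1 or after quantile normalization and 2 after median-ratio scaling, lysosomal genes, 4 of 32, gave 2 without the third 10 μM library and 1 after median-ratio scaling, and neutrophil markers, 3 of 8, gave 5 without the third 10 μM library and 1 at a pseudocount of 1. Immediate early factors, 2 lower of 33, gave 4 after median-ratio scaling. Among genes named above, values near 0 changed sign: after median-ratio scaling Csf1r was at -0.036, H2-Ab1 at -0.065, Mrc1 at -0.11, Nqo1 at -0.031 and Zfp36 at -0.15, after quantile normalization Nqo1 was at -0.038, and with 1 library left out Cxcl2 ran between -0.24 and 0.069 and Zfp36 between -0.026 and 0.099. Depth is unknown, so the precision of low values cannot be given, and with 3 libraries a group the spread is known only through the shared fit.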

Other observations

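Small nucleolar RNA genes, which guide the modification of ribosomal RNA and mostly lie in introns of host genes, were tested in 135 cases. With 10 μM 84 were higher and 3 lower, beside 15.9% higher and 9.05% lower over all genes, and 67 and 3 were called after median-ratio scaling. Their FPKM summed to 254.6, 278.9 and 249.5 in the 10 μM libraries against 131.6, 132.3 and 126.6 in the 1 μM libraries. The median snoRNA gene was at 1.25 to 1.39 FPKM with 10 μM and at 0.62 to 0.64 FPKM with 1 μM, so most values are low. Snord89, for example, was at 5.75, 4.88 and 3.68 FPKM with 10 μM against 0.799, 0.778 and 0.301 FPKM with 1 μM. In these values, reads of a host intron cannot be told apart from those of the snoRNA in it. Of 67 microRNA genes, 22 were higher and 4 lower, and of 454 long noncoding RNA genes 96 were higher and 63 lower. At a pseudocount of 1 these became 14 higher and 2 lower microRNA genes and 37 higher and 38 lower long noncoding RNA genes, and after median-ratio scaling 78 higher and 69 lower long noncoding RNA genes.

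Neat1, the long noncoding RNA that builds paraspeckles, had 127, 142 and 122 FPKM with 10 μM against 10.0, 70.4 and 10.1 FPKM with 1 μM (2.73 ± 0.64, adjusted p = 0.002), so that the second 1 μM library stood apart from the other two. Without that library the log2 fold change was 3.66, and without the first or the third it was 2.27. Cebpb, at 94, 72.4 and 68.2 FPKM with 10 μM against 25, 39.1 and 62.3 FPKM with 1 μM (0.97 ± 0.25), and Klf2, at 18.7, 13.7 and 10.7 FPKM with 10 μM and 16.4, 19.3 and 23.8 FPKM with 1 μM (-0.48 ± 0.18, not called; -0.68 and called without the first 10 μM library, -0.61 and called without the first 1 μM library), also varied widely among libraries of a dose. The median SD of log2 values, over genes of at least 10 FPKM, was 0.064 among the 10 μM libraries and 0.049 among the 1 μM libraries.

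Only 3 genes of at least 2 FPKM in an LPS group were called in both dose steps with opposite directions, Evi2b, Snord104 and Gm45935. Evi2b, a membrane protein of leukocytes, had 6.97, 5.46 and 5.66 FPKM with 10 μM against 0.417, 0.78 and 0.65 FPKM with 1 μM. Over the full series it averaged 13 FPKM in control, 4.13 FPKM with LPS alone, 0.616 FPKM with 1 μM and 6.03 FPKM with 10 μM. Both steps use the same 1 μM libraries.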
